A study of Homo sapiens with 12 samples.

Results

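The genes examined here encode 8 proteins that hepatocytes secrete into blood: ALB, AFP, TTR, SERPINA1, TF, FGB, APOB and APOA1. For each gene, all called regions within 50 kb of its hg19 interval were collected from the region lists of 2 human colorectal adenocarcinoma cell lines, SW480 (Dukes' type B in the labels) and SW620 (Dukes' type C). Of 262931 regions in the 10 lists, 73 lay in these windows, 34 of SW480 and 39 of SW620. The windows of ALB and AFP overlap, so the 8 genes form 7 loci with 858.6 kb in all.

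Both lines were grown untreated in DMEM with serum. Chromatin immunoprecipitation and sequencing (ChIP-seq) was carried out with antibodies against H3K4me2, H3K4me3, H3K27ac, H3K36me3 and the transcription factor FOXA2, 1 library per antibody and line, and the authors' caller listed the enriched regions of each library. The lists give positions and no usable signal per region, so a gene is described by which regions were called and where. A difference between the lines has no replicate check and carries no p-value, and a missing call shows only that no stretch passed the caller's thresholds. Nothing here measures RNA or protein, and markers of colon identity were not examined.

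Plasma proteins are made mainly by hepatocytes, where their genes are driven by liver-enriched factors such as the HNF1, HNF4, C/EBP and FOXA families. FOXA proteins bind forkhead sites in closed chromatin and are known for opening enhancers of ALB and its neighbours during liver development. Active promoters carry H3K4me3, promoters and enhancers alike carry H3K4me2, those in use also carry H3K27ac, and H3K36me3 is laid down along the bodies of transcribed genes. The title of the series sets the comparison of the lines in the context of liver metastasis and tissue-specific transcription, and liver secretory genes were examined for marks and FOXA2 peaks in that context.

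The 8 genes divided into 4 with between 0 and 2 called regions and 4 with 10 or more, both lines counted. No share of genome windows was computed for these counts, so the split is not read as a trait of the genes. No region of any list lay in the windows of ALB, the main carrier protein of plasma, and AFP, its fetal counterpart. TTR, which carries thyroid hormone and retinol-binding protein, had 0 regions in SW480 and 2 in SW620. APOB, the structural protein of low-density lipoprotein, had 1 in SW480 and 0 in SW620. The windows of SERPINA1, TF, FGB and APOA1 held all the other regions. SERPINA1, which encodes the protease inhibitor alpha-1-antitrypsin, had 10 regions in SW480 and 7 in SW620. TF, the iron carrier transferrin, had 9 and 10. FGB, the beta chain of fibrinogen, had 5 in either line. APOA1, the main protein of high-density lipoprotein, had 9 in SW480 and 15 in SW620.

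**Figure D1:**
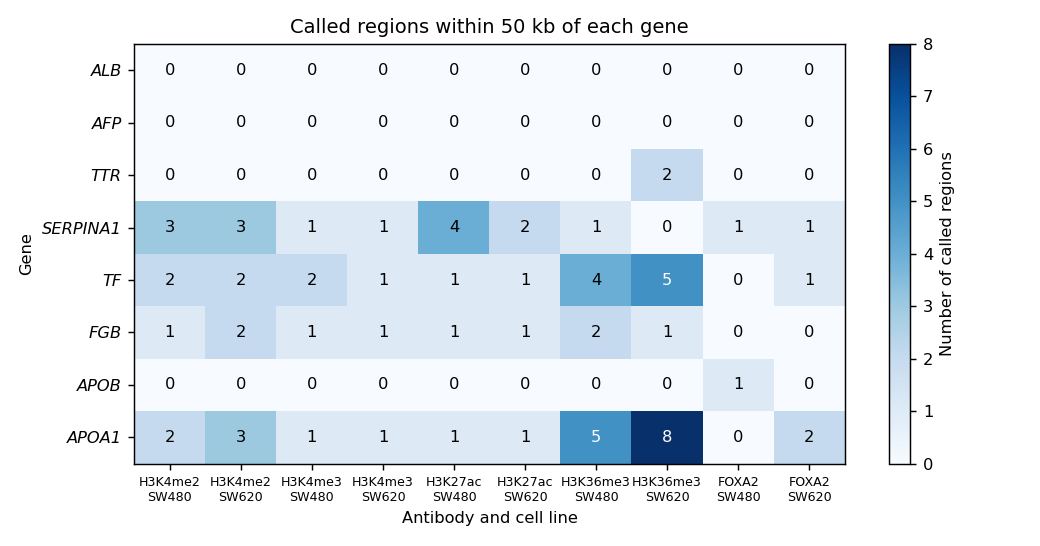
Number of called regions within 50 kb of each gene (rows) for each antibody and line (columns). The rows of ALB and AFP are 0 throughout, and APOA1 has the highest single count, 8 H3K36me3 regions in SW620.

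Of the 73 regions, 14 overlapped a gene interval, 5 in SW480 and 9 in SW620. That is 19.2% of the regions, and the intervals make up 16.8% of the length of the loci, so the count over all genes is close to what the length alone would give. SERPINA1 held 4 of the SW480 and 7 of the SW620 ones, APOA1 held 1 in either line and TF held 1 in SW620. On SERPINA1, 1 H3K4me2 and 1 H3K27ac region of SW480 stood against 3 and 2 narrower ones of SW620. H3K4me2 covered 29.2% of that gene in SW480 and 25.1% in SW620, and H3K27ac 29.6% and 10.4%. The larger SW620 count is thus not a larger covered length. No region overlapped the intervals of ALB, AFP, TTR, FGB and APOB in either line.

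As a background, the genome was divided into 26756 consecutive windows of 115.6 kb, the median length of the gene windows. Of these, 32.9% held no region of any list, against 2 of the 8 gene windows, and 41.5% held no histone region, against 3 of 8. Both counts include ALB and AFP, whose windows overlap and are not separate cases, while the genome windows do not overlap. H3K4me2 was present in 4 of 8 gene windows in each line, and in 48.0% of all windows in SW480 and 49.4% in SW620. H3K4me3 was also present in 4 of 8 in each line, against 37.6% and 34.4%, and H3K27ac in 4 of 8, against 39.0% and 36.3%. H3K36me3 was present in 4 of 8 gene windows in each line, against 28.5% and 27.5%. FOXA2 peaks were present in 2 gene windows in SW480 and 3 in SW620, against 16.8% and 29.0% of all windows. With so few gene windows, no departure from the background is read from these counts. The background includes stretches without genes and without mappable sequence, so it is a description of the lists and not a set of comparable genes.

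**Figure D2:**
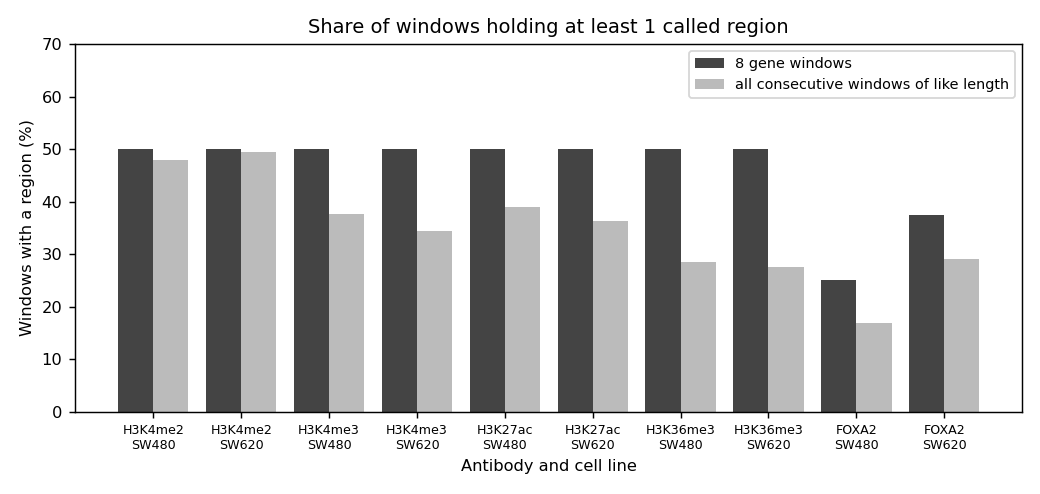
Share of the 8 gene windows (dark bars) and of all consecutive genome windows of 115.6 kb (light bars) that hold at least 1 region, in percent, for each antibody and line. Each histone mark is present in 4 of the 8 gene windows in both lines, and the genome bars of these marks lie between 27.5% and 49.4%.

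The marked length of the 7 loci was also set beside that of the genome. H3K4me2 covered 2.13% of the loci in SW480 and 2.07% in SW620, against 2.55% and 2.74% of the span of all lists. H3K27ac covered 2.26% in SW480 and 0.914% in SW620, against 2.08% and 1.81%. The H3K27ac libraries differed in the share of tags in regions, 58.51% in SW480 and 27.51% in SW620, and its part in this difference was not tested. H3K36me3 covered 3.45% and 3.65% of the loci, against 4.69% and 4.38%. H3K4me3 covered 1.06% in SW480 and 0.881% in SW620, against 1.33% and 1.19%. FOXA2 peaks covered 0.03% and 0.149%, against 0.021% and 0.128%. Regions per Mb of the loci, SW480 first, were 9.32 and 11.65 for H3K4me2, against 10.27 and 11.35 in the genome. For H3K4me3 they were 5.82 and 4.66, against 5.92 and 5.27, and for H3K27ac 8.15 and 5.82, against 7.6 and 7.19. For H3K36me3 they were 13.98 and 18.63, against 17.03 and 14.7, and for FOXA2 2.33 and 4.66, against 1.68 and 4.0.

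Promoter sequence is shown for the genes the results turn on, to set the unmarked genes beside the marked ones. The RefSeq promoter table (GRCh38.p14) has entries for 5 of the 8 genes, namely ALB, AFP, SERPINA1, TF and FGB. TTR, APOB and APOA1 are not shown. SERPINA1, TF and FGB have 2 entries each, with starts 2033, 84395 and 31 bp apart. Of TF the downstream one is shown, and of FGB the upstream one. Each line gives the 250 bases before the listed start, 5′ to 3′ on the coding strand, with capitals for matches to 3 motifs. The motifs, searched on both strands, were the forkhead letters TGTTTAC and TGTTTGC and the HNF1 core letters GTTAAT, which reads ATTAAC on the other strand. The 2 forkhead motifs share their first 5 letters, and none of the matches overlap.
ALB (chr4:73404037-73404286, GRCh38.p14, plus strand): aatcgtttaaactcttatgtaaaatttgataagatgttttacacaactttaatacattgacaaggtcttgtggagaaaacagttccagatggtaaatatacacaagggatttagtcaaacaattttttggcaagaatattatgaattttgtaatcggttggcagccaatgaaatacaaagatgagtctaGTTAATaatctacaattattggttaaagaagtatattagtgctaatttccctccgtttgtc
AFP (chr4:73435971-73436220, GRCh38.p14, plus strand): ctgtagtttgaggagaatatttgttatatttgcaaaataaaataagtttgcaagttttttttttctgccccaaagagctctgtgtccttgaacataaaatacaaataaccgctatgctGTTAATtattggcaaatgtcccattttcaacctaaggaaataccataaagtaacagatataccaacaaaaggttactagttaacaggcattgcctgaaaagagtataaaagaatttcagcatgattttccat
FGB (chr4:154562730-154562979, GRCh38.p14, plus strand): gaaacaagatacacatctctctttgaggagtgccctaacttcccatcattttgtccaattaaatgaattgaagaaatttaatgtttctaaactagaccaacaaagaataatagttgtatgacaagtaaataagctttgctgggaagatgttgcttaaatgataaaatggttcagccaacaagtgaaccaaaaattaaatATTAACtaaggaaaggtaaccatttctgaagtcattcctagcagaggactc
SERPINA1, upstream start (chr14:94390636-94390885, GRCh38.p14, minus strand): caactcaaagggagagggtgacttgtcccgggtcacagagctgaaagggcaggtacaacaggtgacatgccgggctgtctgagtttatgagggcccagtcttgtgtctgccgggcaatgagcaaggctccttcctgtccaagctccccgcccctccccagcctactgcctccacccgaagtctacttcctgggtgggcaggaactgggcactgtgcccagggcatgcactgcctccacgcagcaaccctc
SERPINA1, downstream start (chr14:94388603-94388852, GRCh38.p14, minus strand): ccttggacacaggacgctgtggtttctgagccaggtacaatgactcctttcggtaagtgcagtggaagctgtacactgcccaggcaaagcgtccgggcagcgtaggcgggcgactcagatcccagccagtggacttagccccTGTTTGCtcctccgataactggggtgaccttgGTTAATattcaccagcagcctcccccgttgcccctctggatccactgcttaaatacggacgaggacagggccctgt
TF, downstream start (chr3:133746143-133746392, GRCh38.p14, plus strand): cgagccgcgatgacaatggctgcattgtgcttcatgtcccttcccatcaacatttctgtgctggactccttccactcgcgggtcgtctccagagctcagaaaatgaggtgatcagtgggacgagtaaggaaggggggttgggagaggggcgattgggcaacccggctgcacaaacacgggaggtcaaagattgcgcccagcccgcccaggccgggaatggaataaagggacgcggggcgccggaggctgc

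ALB, AFP and FGB have AT-rich promoters with a match to the letters of HNF1, a homeodomain factor of liver and gut. Their GC contents are 30.0%, 31.6% and 33.2%, where the median of all 35116 promoters is 58.0%, and they hold 3, 1 and 0 CpG dinucleotides against a median of 11. The match lies 61 to 56 bp before the listed start of ALB, 132 to 127 bp before that of AFP and, on the other strand, 51 to 46 bp before the upstream FGB start, which is 82 to 77 bp before the downstream one. GTTAAT occurs in 6.23% of all promoters. The motif is itself AT-rich, and no share was computed for promoters of like GC content. The matches are therefore not read as enriched in these genes. The upstream SERPINA1 promoter has no match to any of the motifs, while the downstream one holds TGTTTGC at 108 to 102 bp and GTTAAT at 76 to 71 bp before its start. TGTTTGC occurs in 3.23% and TGTTTAC in 2.98% of all promoters, and 6.09% hold either. The TF promoter shown is GC-richer, with 60.8% GC and 17 CpG dinucleotides, and has no match. A match describes the letters and is not evidence of binding.

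The ALB and AFP locus on chromosome 4 held no call of any antibody in its windows. ALB spans 74269972 to 74287129 and AFP 74301880 to 74321891, both read toward higher coordinates. On the ALB side, the nearest calls of H3K4me2, H3K4me3 and H3K27ac lay 143.0, 143.3 and 143.6 kb before ALB in SW480 and 143.0, 143.3 and 143.1 kb before it in SW620. These calls of the lines lay at nearly the same place. On the AFP side the nearest H3K4me3 region lay 163.5 kb after AFP in SW480 and 161.0 kb after it in SW620. The other antibodies differed more between the lines. The nearest H3K27ac region after AFP was 118.0 kb away in SW620 and 412.3 kb away in SW480, and the nearest H3K36me3 region 117.6 kb and 704.4 kb. H3K4me2 began 94.6 kb after AFP in SW620, with a region from 74416456 to 74417456, and 163.3 kb after it in SW480. That SW620 region was lost when the H3K4me2 lists were limited to the same number of widest regions. The nearest SW620 H3K4me2 region was then 162.7 kb from the AFP start, against 114.6 kb before. The nearest SW620 FOXA2 peak, from 74464970 to 74465288, was 143.1 kb after AFP, and the nearest SW480 peak on that side was 1727.0 kb away. In the RefSeq table AFM, a further albumin family member, and RASSF6 follow AFP, and these calls are not assigned to a gene.

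TTR and APOB had no H3K4me2, H3K4me3 or H3K27ac region within their windows in either line. TTR, on chromosome 18 from 29171730 to 29178986, had its nearest H3K4me3 region 91.4 kb from the start in SW480 and 92.1 kb in SW620, and its nearest H3K27ac region 91.5 and 92.2 kb away. Its 2 SW620 H3K36me3 regions, from 29118702 to 29123980 and from 29126507 to 29127957, lay before the gene, on the side where DSG2, a desmosomal cadherin, is its neighbour. The first of them extends past the window's edge. It overlapped an SW480 region whose nearest edge was 50.2 kb from the TTR start, just outside the window, while the second had no overlapping SW480 region. APOB, on chromosome 2 from 21224301 to 21266945, is read toward lower coordinates. Its nearest H3K27ac region was 243.1 kb from the start in both lines, and its nearest H3K4me2 region 135.6 kb away in SW480 and 242.6 kb in SW620. The 1 region in its window was an SW480 FOXA2 peak of 127 bp from 21290509 to 21290635, 23.6 kb before the start. The histone region nearest to that peak in either line was 159121 bp away, and the nearest SW620 FOXA2 peak was 155032 bp away.

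SERPINA1 was the only one of the 8 genes with H3K4me3 and H3K27ac on its interval, and it had both in both lines. The gene lies on chromosome 14 from 94843084 to 94857029 and is read toward lower coordinates, so its start is taken at 94857029. In SW480 a single H3K27ac region of 4657 bp, from 94852896 to 94857552, reached from 0.52 kb before the start to 4.13 kb after it. In SW620 the same stretch held 2 H3K27ac regions of 1001 bp each, from 94854679 to 94855679 and from 94856586 to 94857586, and 1001 bp is the narrowest width in the list. H3K27ac thus covered 29.6% of the gene in SW480 and 10.4% in SW620, or 16.9% in SW620 when regions less than 1 kb apart were joined. The share of tags in H3K27ac regions, given above, was also lower in SW620.

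H3K4me2 covered similar parts of SERPINA1 in the lines, 29.2% in SW480 and 25.1% in SW620. It was 1 region of 4493 bp in SW480, from 94852963 to 94857455, and 3 regions of 1257, 2135 and 1251 bp in SW620. H3K4me3 was called once in each line, inside the gene: from 94854134 to 94856258 in SW480, which is 0.77 to 2.90 kb after the start, and from 94854722 to 94855986 in SW620, 1.04 to 2.31 kb after it. Neither region covered the start itself. RefSeq lists a second SERPINA1 start 2033 bp further into the gene than the first on GRCh38, and its promoter is the one with the forkhead and HNF1 letters printed above. Its position on hg19 was not determined. A point 2033 bp after the start used here would lie within the H3K4me3 region of either line. The SW620 H3K4me3 library had 12791745 tags and 52.0% of them in regions, against 16400013 and 73.03% in SW480, and the part of this in the narrower SW620 region was not tested.

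H3K36me3 lay on the SERPINA1 gene body in SW480 alone, with 1 region of 3543 bp from 94846901 to 94850443 that covered 25.4% of the gene. The nearest SW620 H3K36me3 region was 281630 bp from it. The H3K36me3 libraries had 37446361 tags in SW480 and 46006580 in SW620, and the part of depth in this difference was not tested. Of all SW480 H3K36me3 regions, 34.3% were called in SW480 only. H3K36me3 was on the interval of no other member in either line.

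Around SERPINA1, SW480 had H3K27ac regions that were not called in SW620. The lower share of tags in SW620 H3K27ac regions, given above, applies here too, and its part was not tested. H3K27ac regions of 4233 bp (94838174 to 94842406), 2851 bp (94812179 to 94815029) and 1589 bp (94893544 to 94895132) were called in SW480 only. The first lay just beyond the 3′ end of the gene, 14.6 to 18.9 kb after the start, the second 42.0 to 44.9 kb after it, and the third 36.5 to 38.1 kb before it. The third overlapped an SW480-only H3K4me2 region of 1683 bp, and a further SW480-only H3K4me2 region of 1001 bp lay 32.1 to 33.1 kb before the start. Over the 7 loci, 3 of 7 SW480 H3K27ac regions were called in SW480 only, all 3 at SERPINA1, and 0 of 5 SW620 regions in SW620 only. In the whole lists these shares were 32.0% and 26.8%. Other genes of the SERPINA family flank the gene in the RefSeq table, and the regions are not assigned to one of them.

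FOXA2 had 1 peak near SERPINA1 in each line, at different places. The SW620 peak, from 94852959 to 94853277, lay inside the gene 3.75 to 4.07 kb after the start. It overlapped H3K4me2 of both lines and H3K27ac of SW480, and was 1402 bp from the nearest SW620 H3K27ac region. The SW480 peak, from 94837397 to 94837523, lay 19.5 kb after the start and 651 bp from the SW480-only H3K27ac region beyond the 3′ end. The 2 peaks were 15436 bp apart. When the FOXA2 lists were limited to their first 5207 peaks each, the SW620 peak, listed at place 9834 of 12372, was no longer included. No source used here says what the order of the list stands for, so a place is read as a row number and not as a rank of strength.

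**Figure D3:**
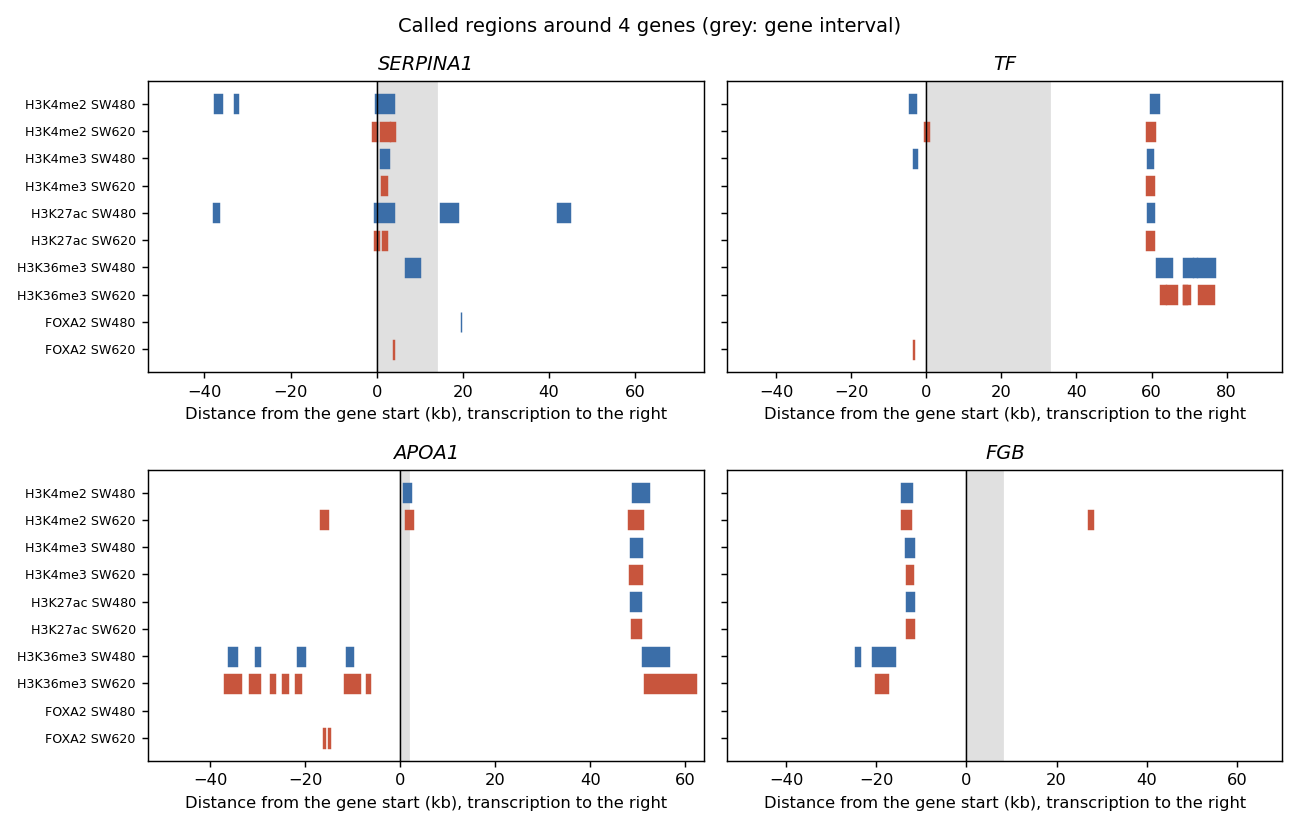
Called regions around SERPINA1, TF, APOA1 and FGB by distance from the gene start in kb, with transcription to the right, 1 row per antibody and line (SW480 blue, SW620 red), the gene interval in grey and the start as a black line. At SERPINA1 the H3K4me3 regions of both lines lie in the first part of the gene, and SW480 has further H3K27ac and H3K4me2 regions on either side of it; at FGB all but 1 SW620 H3K4me2 region lie 11.6 kb or more before the start; at TF and APOA1 the acetylated regions are 58.6 kb and 48.4 kb or more after it.

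At TF the lines were marked at different places near the start. TF lies on chromosome 3 from 133464977 to 133497850 and is read toward higher coordinates, so its start is taken at 133464977. The other RefSeq start of TF, 84395 bp upstream on GRCh38, follows a promoter with 72.4% GC and 34 CpG dinucleotides. Its position on hg19 was not determined, and it was not examined for marks. In SW620 a single H3K4me2 region of 1251 bp, from 133464317 to 133465567, covered the start. In SW480 the start was not covered, and H3K4me2 was called from 133460339 to 133462101, 2.88 to 4.64 kb before it. That SW480 stretch also carried H3K4me3, in a region of 1001 bp from 133461415 to 133462415. The H3K4me2 regions of the lines were 2216 bp apart, so each was called in its own line only.

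FOXA2 had a peak at TF in SW620, from 133461476 to 133461794, which is 3.18 to 3.50 kb before the start. The peak lay inside the H3K4me2 and the H3K4me3 region of SW480, the line without a FOXA2 peak within 919.5 kb of the TF start, and 2523 bp from the nearest H3K4me2 region of SW620. The SW480 FOXA2 list is shorter, with 5207 peaks against 12372. Its library had 0.59% of tags in peaks against 2.25% in SW620, and the part of this was not tested. The SW480 H3K4me3 region was lost when the H3K4me3 lists were limited to the same number of widest regions, and the nearest SW480 H3K4me3 region was then 58.9 kb from the TF start. No H3K27ac lay near the start: the nearest region was 58.7 kb away in SW480 and 58.6 kb in SW620.

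The other regions in the TF window lay 58.5 kb or more after the start, beyond the end of the gene interval. They comprised 1 region each of H3K4me2, H3K4me3 and H3K27ac in either line, which overlapped between the lines, followed by 4 H3K36me3 regions in SW480 and 5 in SW620. In the RefSeq table SRPRB, a subunit of the signal recognition particle receptor, and RAB6B follow TF on this side.

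APOA1 carried H3K4me2 and no other mark on its interval. The gene lies on chromosome 11 from 116706469 to 116708338 and is read toward lower coordinates. H3K4me2 was called in both lines over its 3′ part, from 116706170 to 116707672 in SW480 and from 116705719 to 116707329 in SW620, which is 0.67 to 2.17 kb and 1.01 to 2.62 kb after the start. It covered 64.4% of the gene in SW480 and 46.0% in SW620. The nearest H3K4me3 region was 48.3 kb from the start in both lines, and the nearest H3K27ac region was 48.4 kb away in SW480 and 48.6 kb in SW620. APOC3, APOA4 and APOA5, apolipoproteins of triglyceride-rich lipoproteins, follow on this side in the RefSeq table.

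Before the APOA1 start, FOXA2 peaks were called in SW620 and not in SW480. The share of tags in FOXA2 peaks was 0.59% in SW480 and 2.25% in SW620, and its part in this difference was not tested. The 2 SW620 peaks, from 116723223 to 116723541 and from 116724259 to 116724577, lay 14.9 to 16.2 kb before the start. The second overlapped an SW620 H3K4me2 region of 1681 bp, from 116723601 to 116725281, and the first ended 60 bp from it. In SW480 the nearest H3K4me2 region was 15929 bp from that region and the nearest FOXA2 peak 706.7 kb from the APOA1 start. The nearest H3K27ac of either line was 63250 bp from the peaks. With the FOXA2 lists limited to 5207 peaks each in row order, the second peak stayed and the first did not, which says nothing of their strength. SIK3, a salt-inducible kinase, is the next gene on this side in the RefSeq table.

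H3K36me3 lay on the same side as these peaks in both lines, in 4 SW480 regions from 9.88 to 36.3 kb and in 7 SW620 regions from 6.28 to 37.0 kb before the APOA1 start. On the other side 1 further H3K36me3 region per line began 50.9 kb after the start in SW480 and 51.2 kb after it in SW620. Over the 7 loci, 3 of 12 SW480 and 4 of 16 SW620 H3K36me3 regions were called in 1 line only, against 34.3% and 27.9% of the whole lists.

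FGB had no mark on its interval, and the marks in its window were much the same in both lines. The gene lies on chromosome 4 from 155484132 to 155492241 and is read toward higher coordinates. H3K4me2, H3K4me3 and H3K27ac each had 1 region per line between 11.6 and 14.6 kb before the start. The H3K27ac regions, from 155470734 to 155472504 in SW480 and from 155470729 to 155472503 in SW620, agreed to within 5 bp at either edge. H3K36me3 lay further out, 15.8 to 24.7 kb before the start in 2 SW480 regions and 17.4 to 20.2 kb before it in 1 SW620 region. PLRG1, a splicing factor expressed in most tissues, is the neighbour on this side in the RefSeq table. The 1 difference on the other side was an SW620-only H3K4me2 region of 1001 bp, from 155511214 to 155512214, 27.1 to 28.1 kb after the FGB start. FGA and FGG, the other fibrinogen chains, are the next genes there. No FOXA2 peak of either line lay in the window.

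The starts were then read by mark. H3K4me2 lay within 1 kb of 2 starts in each line, those of SERPINA1 and APOA1 in SW480 and those of SERPINA1 and TF in SW620. H3K4me3 lay within 1 kb of the SERPINA1 interval start in SW480, and of no interval start in SW620, where the SERPINA1 region was 1043 bp away. Other RefSeq starts were not counted. The second one of SERPINA1 may lie within the H3K4me3 regions of both lines, as described above. H3K27ac was within 1 kb of the SERPINA1 start alone, in both lines. H3K36me3 and FOXA2 were within 1 kb of no start, and within 5 kb FOXA2 had 0 starts in SW480 and 2 in SW620, those of SERPINA1 and TF. The start of APOA1 was 1009 bp from H3K4me2 in SW620, so that the limit of 1 kb decides this case. No set of other gene starts on hg19 was used. Of all positions in the span of the lists, 4.51% in SW480 and 4.89% in SW620 lay within 1 kb of H3K4me2, 2.49% and 2.23% within 1 kb of H3K4me3, and 3.54% and 3.17% within 1 kb of H3K27ac. For H3K36me3 the shares within 1 kb were 7.04% and 6.43%, and for FOXA2 0.352% and 0.914%. These shares cover positions of every kind and are no background for gene starts. For the limit of 5 kb no share was computed, so the FOXA2 counts at 5 kb have none beside them.

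**Figure D4:**
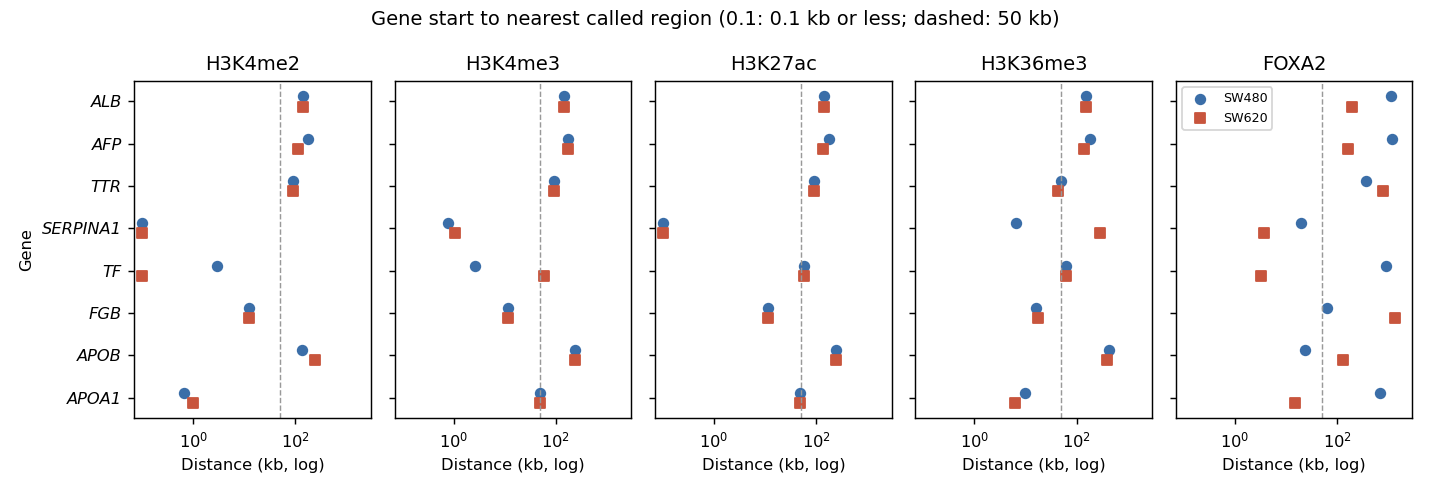
Distance in kb (log axis) from each gene start to the nearest called region of each antibody in SW480 (blue circles) and SW620 (red squares), with the dashed line at 50 kb; distances of 0.1 kb or less are drawn at 0.1. SERPINA1 is nearest for H3K4me3 and H3K27ac in both lines, and the nearest FOXA2 peak to TF is 3.2 kb away in SW620 and 919.5 kb in SW480. The FOXA2 lists differ in length, with 5207 peaks in SW480 and 12372 in SW620.

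Taking FOXA2 across the genes, 3 of the 8 windows held a peak in SW620 (SERPINA1, TF and APOA1) and 2 in SW480 (SERPINA1 and APOB). The distance from start to nearest peak had a median of 147.3 kb in SW620 and 535.9 kb in SW480, and ran from 3.2 to 1358.5 kb and from 19.5 to 1177.7 kb. For the centres of all genome windows these medians were 142.6 and 231.3 kb. The nearest peak was closer in SW620 for ALB, AFP, SERPINA1, TF and APOA1 and closer in SW480 for TTR, FGB and APOB. ALB and AFP have the same nearest peak in each line, so they are not separate cases here or in the medians. The SW620 list is longer, with 12372 peaks against 5207. The SW620 library also had more of its tags in peaks, 2.25% against 0.59% in SW480, and the part of this was not tested. Peak positions were not shared: 4 of 4 SW620 and 2 of 2 SW480 peaks in the windows were called in 1 line only, as were 98.1% and 95.5% of the whole lists. Of the 4 SW620 peaks, 2 overlapped H3K4me2 of SW620, 2 overlapped H3K4me2 of SW480 and none overlapped H3K27ac of SW620. Over all SW620 peaks these shares were 51.7%, 30.2% and 33.9%. Of the 2 SW480 peaks, none overlapped a histone region of either line, and 11.7% of all SW480 peaks did. With 4 and 2 peaks, no departure from the whole lists is read from these counts.

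Line-only calls of the histone marks were few. For H3K4me2 they numbered 3 of 8 in SW480 (2 before SERPINA1 and 1 before TF) and 3 of 10 in SW620 (1 each at TF, FGB and APOA1), against 23.2% and 30.2% of the whole lists. For H3K4me3 the region before TF was the 1 of 5 in SW480, and SW620 had 0 of 4, against 17.1% and 6.85%. At these counts the shares are not distinguished from those of the whole lists.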

How the data were processed

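Groups were taken from the sample titles: 12 samples form 12 groups with 1 library each, and the 10 antibody libraries have a region list. The authors called regions with HOMER findPeaks and an input of each line, per the file headers. Histone marks used the histone style, a size of 1000 bp and enrichments F and L of at least 4, FOXA2 the factor style with F and L of at least 2, and all a false discovery rate of 0.001. The build is hg19, per the submitters' processing notes. For the aligner and the HOMER release: not given in the sources used here. The deposited score was 1 in every row, so only the deposited start and end positions, in bp, were used. Total tags per library lay between 12791745 and 47867295.

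A region was counted for a gene when it overlapped the interval plus 50 kb on each side by at least 1 bp. It was shared when at least 1 bp was common to a region of the same antibody in SW480 and SW620, otherwise line-only. Gene starts are the 5′ ends of the intervals, with strand from RefSeq for the 5 genes listed there and from general knowledge for TTR, APOB and APOA1. Overlaps were computed with Python 3.11.15, numpy 2.4.6 and pandas 2.3.3, tested on simulated regions, and drawn with matplotlib 3.10.9. RefSeq on GRCh38 gave promoter sequences and the order of neighbours. Of 15 further secretory genes listed for the same clusters, 11 are within 3 protein-coding genes of a member, and none was given regions.

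The genes and lists were chosen with earlier results of these data known. Single regions are named where they overlap a gene, lie within 5 kb of its start or are FOXA2 peaks, and otherwise as nearest or widest; further line-only regions were chosen after their values were seen. Alternatives covered flank, overlap, distance from the start, joining and lists of equal length.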

Additional observations from a re-analysis of the deposited data

How the results depend on the processing

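No paired analysis was possible because each group has 1 library and the result comes from no test. Counts in the windows follow the flank. With 20 kb, SW480 had 4 H3K4me2, 3 H3K4me3, 3 H3K27ac, 4 H3K36me3 and 1 FOXA2 regions, and SW620 had 2 H3K4me3, 3 H3K27ac and 3 H3K36me3. With 100 kb, SW480 had 15 H3K4me2, 10 H3K4me3, 11 H3K27ac, 27 H3K36me3 and 5 FOXA2 regions, and SW620 had 19 H3K4me2, 8 H3K4me3, 9 H3K27ac and 27 H3K36me3. Line-only counts with 20 kb were 1 for each of H3K4me2, H3K27ac, H3K36me3 and FOXA2 in SW480 and 1 for H3K36me3 in SW620. With 100 kb they were 2 for H3K4me3 and 5 for FOXA2 in SW480, and 6 for H3K4me2 and 7 for H3K36me3 in SW620. With an overlap of 50% of both regions required, line-only counts were 6 for H3K4me2, 2 for H3K27ac and 12 for H3K36me3 in SW620 and 8 for H3K36me3 in SW480.

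With lists of equal length, by width for histone marks and by row order for FOXA2, whose meaning is unknown, SW480 had 0 line-only H3K4me3 regions and the nearest to TF was 58.9 kb from the start. SW620 had 2 FOXA2 peaks, both line-only, 0.0% of SERPINA1 was covered by FOXA2, and the nearest peak was 362.0 kb from SERPINA1 and 1422.3 kb from TTR. Joining regions less than 1 kb apart gave 16.9% H3K27ac over SERPINA1 in SW620. Within 5 kb of the start there were 2 genes for SW480 H3K4me3, 1 for SW620 H3K4me3 and 2 for SW620 FOXA2. No background share was computed for 5 kb, so nothing is read from these counts. With the start base covered there was 1 for SW480 H3K4me2 and 0 for SW480 H3K4me3. The other values stayed within 1.5 times of those reported, including all counts by region centre, by joining or with the other line within 1 kb. Absent calls are limited by each library's depth and by the caller's thresholds, and the lists hold no value below them.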
